A study of Homo sapiens with 6 samples.

Results

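The 10 heat shock genes described here encode the main stress-responsive transcription factor HSF1 and the cytosolic and mitochondrial chaperones HSPA1A, HSPA1B, HSPA8, HSPH1, DNAJB1, HSP90AA1, HSP90AB1, HSPD1 and HSPE1. They were chosen by name, as 10 of the 23619 gene symbols measured in every library. Levels are in FPKM, the number of sequenced fragments per unit of transcript length and of library size. The filter for testing, 1 FPKM or more in 3 or more of the 6 libraries, was passed by 9 of the members and by 11307 genes in all. HSPA1A did not pass it: the gene reached 1 FPKM in a single library, and its values are given without a test. The cells were HG3, a lymphoblastoid B cell line derived from chronic lymphocytic leukemia. The libraries were made from 3 fludarabine-resistant pools, numbered 17, 18 and 28, and from 3 control pools with the same numbers, with 1 library of total RNA per pool and group; the sample titles call the resistant ones treated. The pools belong to a transposon mutagenesis study, and the labels give neither the transposon construct, the dose of fludarabine nor the time of culture. Nothing in the labels states that pools were kept as separate cultures throughout, and a p-value here reflects only how far these 6 libraries scatter.

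Chaperones bind unfolded or newly made proteins and help them fold, and many are made in larger amounts after heat, proteotoxic drugs or other stress. HSF1 drives that response: in unstressed cells chaperones hold it inactive, and on stress it forms trimers that bind heat shock elements, repeats of a short GAA unit in alternating orientation, near the starts of its target genes. HSPA8 and HSP90AB1 are largely constitutive forms, while HSPA1A, HSPA1B and their relative HSPA6 are strongly inducible ones. HSP90 chaperones mature kinases and hormone receptors, and HSPD1 with its lid HSPE1 folds proteins inside mitochondria.

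The libraries differed little in size, and 1 of them stood apart. Relative depth, read from the steps between low FPKM values, ran from 1.04 to 1.31 in resistant and from 1 to 1.26 in control libraries when control 17 was taken as 1. The first principal component held 41.4% of the variance of all genes tested and placed resistant 18 at 58.8, against -33.5 to 6.81 for the other libraries. All 8 B cell markers were present, with a summed level of 2029 to 2947 FPKM in resistant and 2124 to 2633 FPKM in control libraries. No T cell marker reached 1 FPKM in any library. HBA1, HBA2 and HBB of the erythroid list were at 0 in every library. DCN, LUM and EPCAM of the fibroblast and epithelial list were also at 0 throughout. Of the erythroid list only EPOR reached 1 FPKM. That list summed to 1.54 to 1.61 FPKM in resistant and 1.74 to 1.85 FPKM in control libraries. Of the fibroblast and epithelial list only KRT18 reached 1 FPKM, with its highest value, 5.09 FPKM, in control 18. The list summed to 0.51 to 3.02 FPKM in resistant and 2.25 to 6.09 FPKM in control libraries. The myeloid list summed to 4.11 to 8.35 FPKM in resistant and 6.63 to 16.4 FPKM in control libraries, led by CD33, with FCN1 at 0.

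Windows around the annotated starts of several members hold the pattern that HSF1 binds. The stretches that carry it are shown here because some members have 3 or more exact units in a row and others only 2. Windows from 250 bases before to 50 bases after each transcript start were taken from RefSeq on GRCh38.p14 and searched on both strands. The 2-unit forms were GAANNTTC and TTCNNGAA, each its own reverse complement, and the 3-unit forms were GAANNTTCNNGAA and TTCNNGAANNTTC, which are each other's reverse complement and contain both 2-unit forms. Windows were found for 9 of the 10 members, all but HSF1, and made 15 windows because some genes have several starts. A 2-unit form lay in 8 of these 15 windows, from 7 members, against 13.5% of the 35116 windows of all genes. A 3-unit form lay in 4 windows, from HSPA8, HSP90AA1, HSP90AB1 and HSPD1, against 0.49% of all windows. A match describes these letters only and is not a measured binding site. Units with a differing base were not searched for, so the full length of an array was not measured. In the lines that follow, sequences run 5′ to 3′ on the gene's strand and capitals mark the matched units with the bases between them.

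In the inducible genes and DNAJB1, exact 2-unit matches lay upstream of the start, and whether inexact units adjoin them was not measured. The stretches are at chr6:31815393-31815463 (+ strand) for HSPA1A, chr6:31827588-31827658 (+ strand) for HSPA1B and chr19:14518422-14518507 (- strand) for DNAJB1, which has a pair of matches. From a further DNAJB1 start, another match lay at positions 1 to 8 downstream. Over the 250 bases before the start, HSPA1A and HSPA1B were identical at 235 of 251 aligned positions, 93.6%.
HSPA1A: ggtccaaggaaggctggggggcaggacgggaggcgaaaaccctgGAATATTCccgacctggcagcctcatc
HSPA1B: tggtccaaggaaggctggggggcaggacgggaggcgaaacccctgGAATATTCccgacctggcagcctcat
DNAJB1: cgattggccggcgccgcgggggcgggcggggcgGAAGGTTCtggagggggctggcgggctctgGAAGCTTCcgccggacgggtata

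In the abundant chaperones exact 3-unit forms were found, in the stretches at chr11:123062171-123062200 (- strand) for HSPA8, chr14:102087105-102087134 (- strand) for HSP90AA1, chr6:44247822-44247851 (+ strand) for HSP90AB1 and chr2:197500061-197500090 (- strand) for HSPD1. The stretches of HSPA8, HSP90AA1 and HSPD1 lie wholly inside exons annotated by GENCODE v29. Those of HSPD1, HSP90AA1 and HSP90AB1, and the pair of DNAJB1, lie downstream of another RefSeq start of the same gene, so they are not upstream of every start. HSPA8 and HSP90AB1 each held another 3-unit match farther upstream in the same window. In HSPD1, 2 overlapping 3-unit matches made a longer run of exact units, from position -245 to -228. In HSPE1 and HSPH1 neither form was found in these windows, which says nothing about sites elsewhere. The HSPD1 stretch also lies upstream of the HSPE1 start, just beyond the 250-base limit of the HSPE1 window.
HSPA8: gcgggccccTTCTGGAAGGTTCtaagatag
HSP90AA1: tcTTCCGGAAGGTTCgggaggcTTCTGGAA
HSP90AB1: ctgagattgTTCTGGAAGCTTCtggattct
HSPD1: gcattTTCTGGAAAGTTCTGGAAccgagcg

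**Figure D1:**
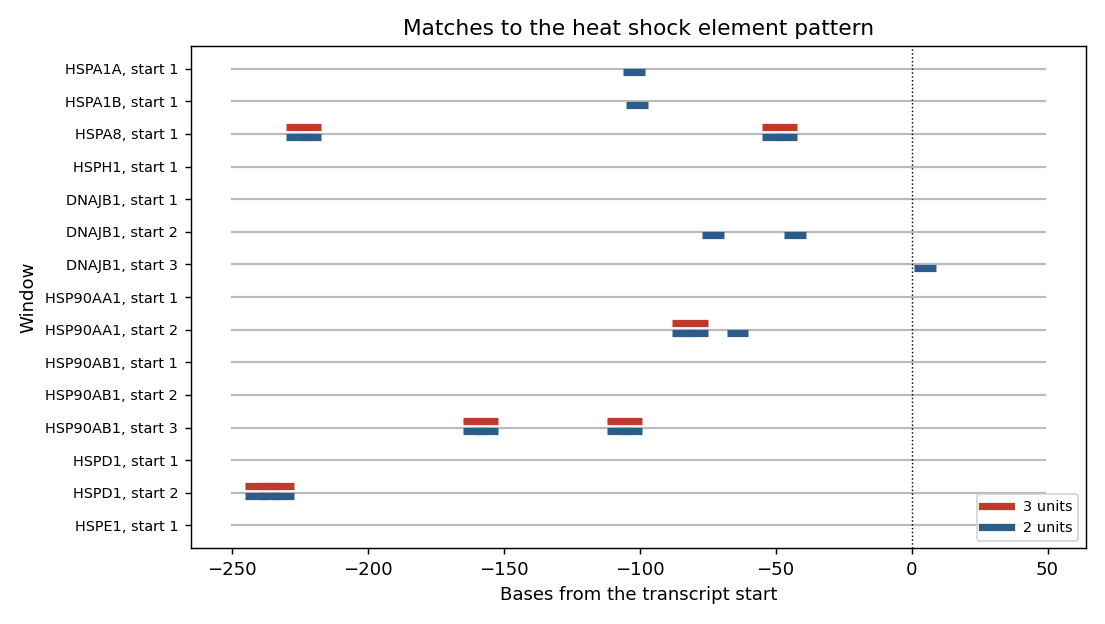
Positions of 2-unit matches (blue) and 3-unit matches (red) to the heat shock element pattern in the 15 member windows, with bases from the transcript start on the horizontal axis and 1 row per annotated start. The 3-unit matches lie in 1 window each of HSPA8, HSP90AA1, HSP90AB1 and HSPD1, and HSPA1A and HSPA1B have a 2-unit match at nearly the same place.

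The difference between resistant and control pools passed the test for no member. With limma on log2(FPKM + 1) and adjustment over all 11307 genes, 0 of the 9 tested members passed an adjusted p of 0.05, where 4 genes, 0.0354% of those tested, did. None of the 9 had an unadjusted p under 0.05 by limma, against 13.1% of all genes. Resistant and control values overlapped for each of the 9, whereas they did not overlap for 21.3% of all genes. The sign of the difference was the same in all 3 pools for 0 of the 9, against 37.6% of all genes; with resistant 18 or control 18 left out, pools 17 and 28 alone had to match, and 6 of the 9 did, near the 69.2% of all genes. The median difference over the 9 members was -0.01 on the log2(FPKM + 1) scale, beside 0.01 over all genes tested, with 4 of the 9 positive against 51.6% of all genes, and it was -0.22 without resistant 18. This scale understates differences of genes with low FPKM. In bulk RNA, fewer cells with a transcript and less transcript per cell cannot be told apart.

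The pools went different ways. In pool 17 the median over the 9 members was -0.21, with 1 member positive. In pool 18 it was 0.37, with 7 positive, and in pool 28 it was -0.01, with 4 positive. Over all genes tested the medians were -0.03, 0.05 and -0.01 in the same pools. Each pool difference sets 1 library against 1 library and has no replicate.

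**Figure D2:**
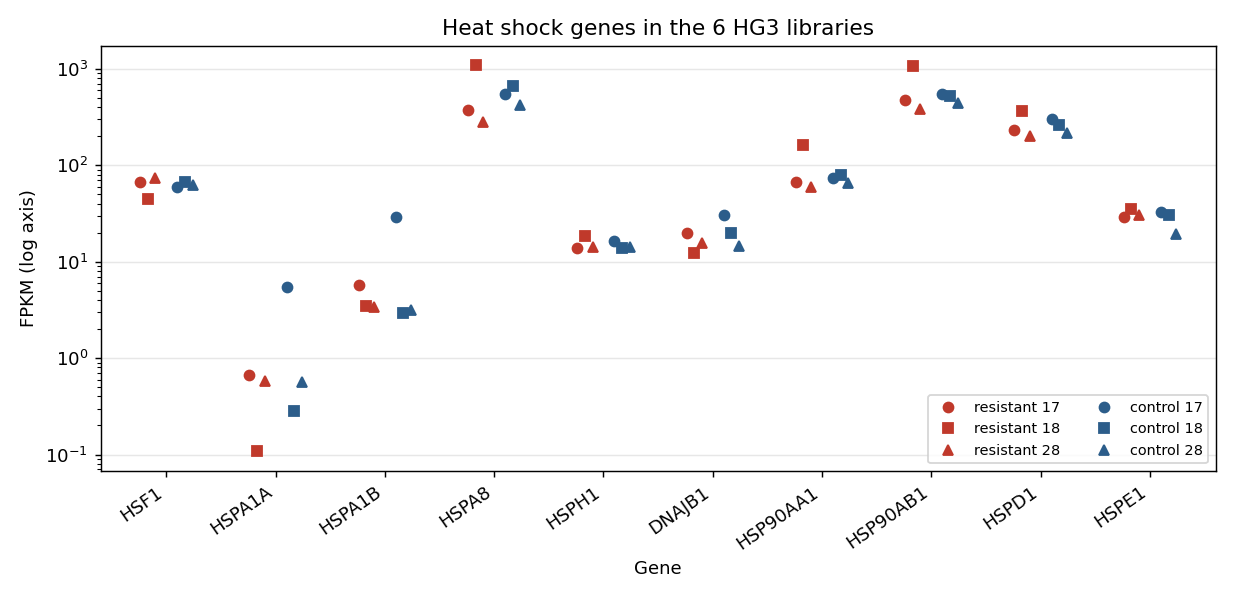
FPKM of the 10 members on a log axis, with resistant libraries in red left of control libraries in blue and a marker shape per pool. The groups overlap for every gene; resistant 18 lies highest for HSPA8, HSP90AA1, HSP90AB1, HSPD1, HSPE1 and HSPH1, and control 17 lies highest for HSPA1A, HSPA1B and DNAJB1.

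By level per transcript length, HSP90AB1 and HSPA8 were the most abundant members, averaging 575 and 564 FPKM over the 6 libraries, both at about the 96.9th percentile of genes tested. Their order was not fixed, since HSP90AB1 exceeded HSPA8 in 3 of 6 libraries. HSPD1 at 264 FPKM and HSP90AA1 at 84.3 FPKM followed in that order in all 6 libraries. HSF1 at 62.6 FPKM lay below HSP90AA1 in 5 of 6 libraries, all but resistant 28. HSPE1 averaged 29.6 FPKM, DNAJB1 18.8 FPKM and HSPH1 15.2 FPKM. DNAJB1 was above HSPH1 in all libraries but resistant 18. HSPA1B, at 7.93 FPKM, was below HSPH1 in all libraries but control 17. HSPA1A, at 1.28 FPKM, was below HSPA1B in all 6.

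HSF1, the factor that drives the heat shock response, had 67.6, 44.2 and 74.2 FPKM in resistant 17, 18 and 28, against 59.6, 67.4 and 62.4 FPKM in control 17, 18 and 28. Resistant 18 was the lowest library and resistant 28 the highest, so the control values lay inside the resistant range. Means were 62.0 ± 15.7 FPKM in resistant and 63.1 ± 3.95 FPKM in control libraries (SD, n = 3 each), a difference of -0.06 (SE 0.22, limma adjusted p = 0.941), which was 0.17 without resistant 18. HSF2, a related factor that can form trimers with HSF1, had 9.06, 18.8 and 8.37 FPKM in resistant pools, against 9.11, 11.2 and 10.2 FPKM in control pools. Its difference was 0.15 (SE 0.30, limma adjusted p = 0.870), and resistant 18, the lowest library for HSF1, was the highest for HSF2, whose difference without it was -0.20. HSF4, a member of the family best known from the lens, had a difference of -0.15 (limma adjusted p = 0.867), which was 0.14 without resistant 18, and stayed at or under 1.79 FPKM. Of the 6 genes listed as HSF family and regulators of HSF1, 3 were tested and none passed.

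HSPA1A, an inducible cytosolic HSP70, was nearly silent outside 1 control library. It had 0.673, 0.108 and 0.583 FPKM in resistant pools 17, 18 and 28, against 5.47, 0.286 and 0.565 FPKM in control pools 17, 18 and 28. HSPA1B, the neighbouring gene for an almost identical protein, had 5.74, 3.45 and 3.38 FPKM in resistant pools, against 28.9, 2.96 and 3.12 FPKM in control pools. In both genes control 17 was far above the 5 other libraries. Among those 5, resistant and control values overlapped for HSPA1A. Each resistant value of HSPA1B was above both of those control values, clearly in resistant 17 and slightly in resistant 18 and 28. For HSPA1B the difference was -0.63 (SE 0.75, limma adjusted p = 0.756), with means of 4.19 ± 1.34 FPKM in resistant and 11.7 ± 14.9 FPKM in control libraries (SD, n = 3 each). The SD of the control libraries exceeded their mean. Without control 17 the difference was 0.33, of the opposite sign.

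Values of these near-identical genes are uncertain one by one. Of the stretches of 50 bases in the annotated transcripts (GENCODE v29), 72.6% of those in HSPA1A also occurred in HSPA1B, and 71.4% of those in HSPA1B also occurred in HSPA1A. The ratio of HSPA1B to HSPA1A in FPKM was 8.53, 31.9 and 5.80 in resistant pools, against 5.28, 10.4 and 5.52 in control pools. How the authors' counting shared reads between the copies is not given in the sources used here.

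HSPA6, another stress-inducible HSP70, which is almost absent from unstressed cells, had 3.44, 0.0245 and 0.367 FPKM in resistant pools, against 21.2, 1.89 and 1.41 FPKM in control pools. Its highest library was again control 17, and resistant 17 was second. The difference of -1.55 (SE 0.92) had a limma adjusted p of 0.507, and it was -0.52 without control 17, with resistant 17 kept. HSPA6 differed by -2.32, -1.50 and -0.82 in pools 17, 18 and 28. A difference of the same sign in all 3 pools was found for 37.6% of all genes tested. Control 17 was the highest of the 6 libraries for 2 of the 9 tested members, HSPA1B and DNAJB1, and for 8.2% of all genes tested. It was at least 4 times the highest other library for 1 of the 9, HSPA1B, and for 0.0265% of all genes tested, a total of 3. These were HSPA6 with a ratio of 6.17, HSPA1B with 5.04 and CTAG2, a cancer-testis antigen gene, with 4.62. The filter removes genes that reach 1 FPKM in control 17 alone, so this count leaves such genes out. HSPA1A is 1 of them, with 5.47 FPKM in control 17 and at most 0.673 FPKM elsewhere. HSPA6 and CTAG2 were named after their values were seen in this respect.

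DNAJB1, the J domain co-chaperone that delivers clients to HSP70 and is itself a target of HSF1, had 19.7, 12.4 and 15.6 FPKM in resistant pools, against 30.4, 19.8 and 14.7 FPKM in control pools. Control 17 was highest and resistant 18 lowest, and pool 28 was nearly level. Means were 15.9 ± 3.63 FPKM in resistant and 21.6 ± 8.01 FPKM in control libraries (SD, n = 3 each), a difference of -0.38 (SE 0.29, limma adjusted p = 0.604). Without control 17 it was -0.12. By pool, DNAJB1 differed by -0.60, -0.63 and 0.08 in pools 17, 18 and 28. BAG3, an HSP70 cofactor that is also an HSF1 target, had 1.53, 0.761 and 1.08 FPKM in resistant pools, against 2.05, 1.05 and 1.60 FPKM in control pools. Control 17 was its highest library too, by a smaller margin, and its difference was -0.27 (SE 0.22, limma adjusted p = 0.642). Within pools 17, 18 and 28, BAG3 differed by -0.27, -0.22 and -0.32.

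Of the 10 tested genes in the list of immediate early genes, which cells switch on within minutes of many stimuli, 0 had their highest value in control 17, a share near the 8.2% of all genes. Their lowest value was in resistant 18 for 8 of the 10, against 25.6% of all genes. What set control 17 apart for the inducible genes was not tested.

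**Figure D3:**
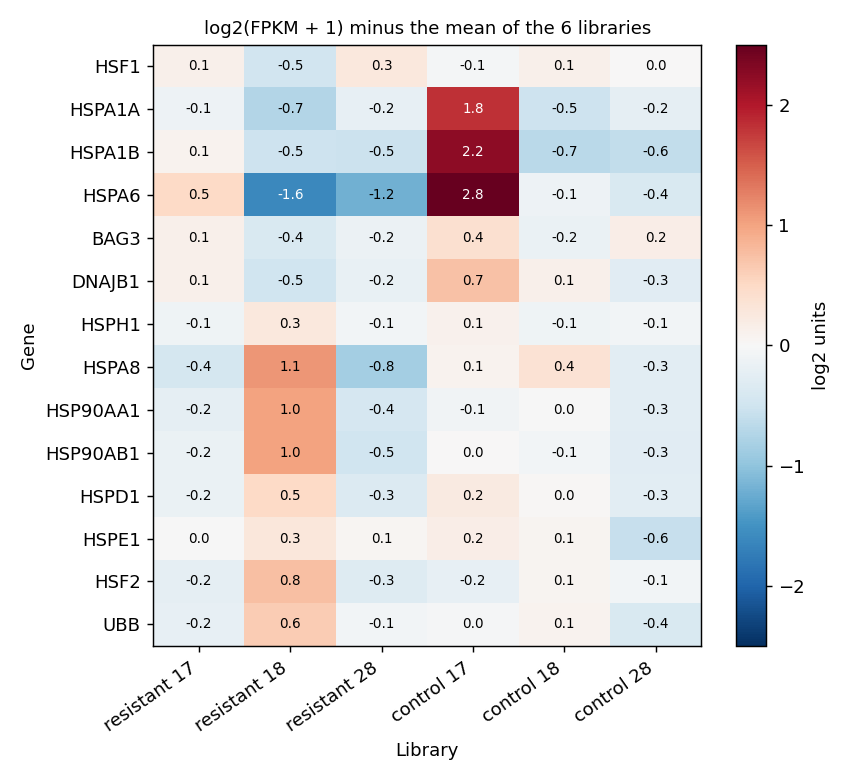
Level of 14 heat shock and stress genes in each library as log2(FPKM + 1) minus the gene's mean over the 6 libraries, with resistant libraries in the first 3 columns and control libraries in the last 3. The control 17 column is highest for HSPA6 (2.8), HSPA1B (2.2) and HSPA1A (1.8), and the resistant 18 column for HSPA8 (1.1), HSP90AA1 (1.0) and HSP90AB1 (1.0).

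HSPA8, the constitutive cytosolic HSP70 that also uncoats clathrin vesicles, had 374, 1092 and 283 FPKM in resistant pools 17, 18 and 28, against 546, 659 and 426 FPKM in control pools 17, 18 and 28. Resistant 18 was the highest library and the other resistant libraries were the 2 lowest, so the control values lay between them. Means were 583 ± 443 FPKM in resistant and 544 ± 116 FPKM in control libraries (SD, n = 3 each), a difference of -0.13 (SE 0.49, limma adjusted p = 0.936). By pool, HSPA8 differed by -0.54, 0.73 and -0.59 in pools 17, 18 and 28. Without resistant 18 the difference was -0.72 (limma adjusted p = 0.161). HSPA8 exceeded HSPA1B by 65.2, 317 and 83.7 times in resistant pools, against 18.9, 222 and 136 times in control pools, in FPKM.

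HSPH1, an HSP110 protein that exchanges nucleotide on HSP70, had 13.9, 18.4 and 14.3 FPKM in resistant pools, against 16.2, 14.0 and 14.4 FPKM in control pools. Resistant 18 was again highest, but the whole range was narrow. Means were 15.5 ± 2.49 FPKM in resistant and 14.9 ± 1.23 FPKM in control libraries (SD, n = 3 each), a difference of 0.05 (SE 0.17, limma adjusted p = 0.928), which was -0.070 without resistant 18. None of its 50-base stretches occurred in another annotated gene, so its value is the least exposed of the members to shared sequence.

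HSP90AA1, the more inducible of the cytosolic HSP90 genes, had 67.8, 161 and 59.0 FPKM in resistant pools, against 74.1, 78.7 and 65.8 FPKM in control pools. Resistant 18 was far above the rest, and resistant 17 and 28 were each below their own control. Means were 95.8 ± 56.3 FPKM in resistant and 72.9 ± 6.55 FPKM in control libraries (SD, n = 3 each), a difference of 0.25 (SE 0.37, limma adjusted p = 0.818). HSP90AB1, the constitutive form, had 481, 1083 and 383 FPKM in resistant pools, against 544, 518 and 442 FPKM in control pools. The same library was the high one and the same resistant pools lay below their controls. Means were 649 ± 379 FPKM in resistant and 501 ± 53.4 FPKM in control libraries (SD, n = 3 each), a difference of 0.23 (SE 0.39, limma adjusted p = 0.843).

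In both HSP90 genes the sign of the difference came from pool 18. HSP90AA1 differed by -0.13, 1.02 and -0.16 in pools 17, 18 and 28, and HSP90AB1 by -0.18, 1.06 and -0.20. Without resistant 18 the differences were -0.20 for HSP90AA1 and -0.22 for HSP90AB1. The ratio of HSP90AB1 to HSP90AA1 stayed close through this: it was 7.09, 6.74 and 6.50 in resistant pools, against 7.34, 6.59 and 6.71 in control pools. Its highest value was 1.13 times its lowest, although each gene alone spanned more than that. Both genes have processed pseudogenes, and 21.4% of the 50-base stretches of HSP90AA1 and 18.8% of those of HSP90AB1 occurred in another annotated gene.

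HSPD1, the mitochondrial HSP60, had 231, 367 and 204 FPKM in resistant pools, against 304, 264 and 217 FPKM in control pools. Resistant 18 was highest, control 17 second, and the groups overlapped. Means were 267 ± 87.4 FPKM in resistant and 262 ± 43.8 FPKM in control libraries (SD, n = 3 each), a difference of -0.01 (SE 0.27, limma adjusted p = 0.997). Within pools HSPD1 differed by -0.40, 0.47 and -0.09 in pools 17, 18 and 28.

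HSPE1, the HSP10 lid of the HSPD1 chamber, had 29.1, 35.5 and 30.4 FPKM in resistant pools, against 33.0, 30.5 and 19.3 FPKM in control pools. Control 28 was the low library, and resistant 18 was highest by a small margin. Means were 31.7 ± 3.38 FPKM in resistant and 27.6 ± 7.34 FPKM in control libraries (SD, n = 3 each), a difference of 0.22 (SE 0.23, limma adjusted p = 0.724). Without control 28 the difference was -0.01.

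HSPD1 and HSPE1 lie head to head, with 104 bases between their RefSeq starts, so they share a promoter region. Their levels did not keep a fixed ratio: HSPD1 over HSPE1 in FPKM was 7.93, 10.3 and 6.70 in resistant pools, against 9.21, 8.65 and 11.2 in control pools. The highest ratio was 1.68 times the lowest, a wider span than that of the HSP90 pair. Both genes share sequence with other annotated genes, over 25.0% of the 50-base stretches of HSPD1 and 52.9% of those of HSPE1. For HSPE1 the gene sharing the most was HSPD1 itself, with 25.7% of the HSPE1 stretches, counted on either strand. Whether reads from 1 of these genes entered the value of the other was not tested.

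**Figure D4:**
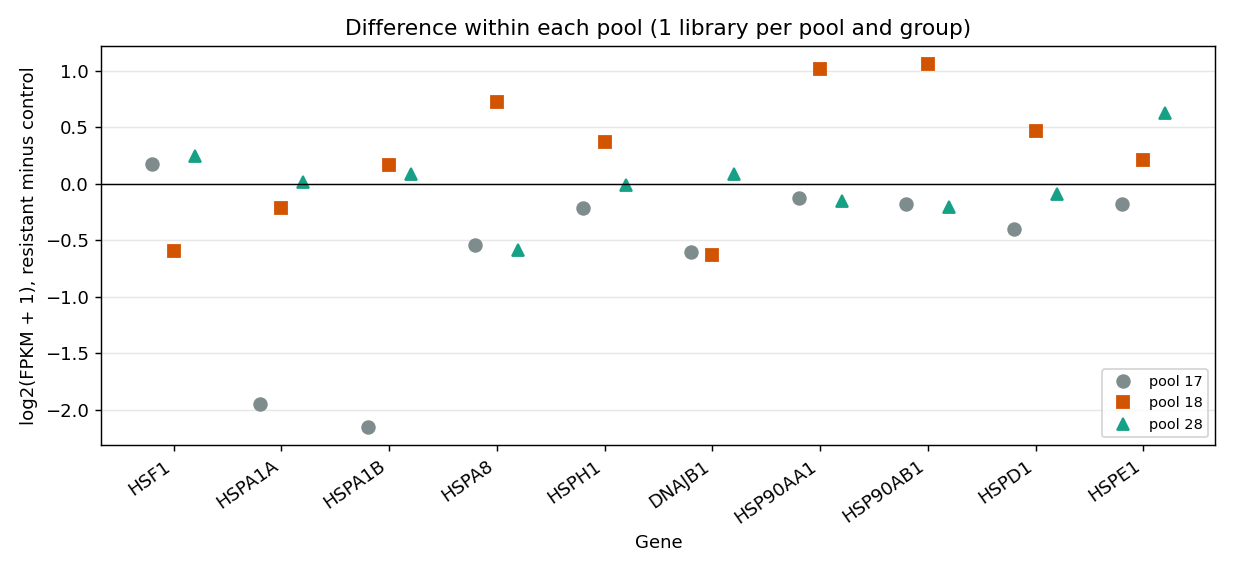
Difference in log2(FPKM + 1), resistant minus control, of each member within pools 17 (grey), 18 (orange) and 28 (green), with 1 library per pool and group. HSPA8, HSP90AA1 and HSP90AB1 are above 0 in pool 18 only, while HSPA1A and HSPA1B lie far below 0 in pool 17 only.

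Resistant 18 was the highest of the 6 libraries for 6 of the 9 tested members, against 35.4% of all genes tested. HSPA8, HSP90AA1 and HSP90AB1, 3 of the 9, were higher by more than 0.5 on the log2 scale in pool 18, against 21.3% of all genes. For HSF1 and DNAJB1, 2 of the 9, the same library was the lowest, against 25.6% of all genes. Without resistant 18, the difference was -0.26 for HSPD1, 0.14 for HSPE1, -0.54 for HSPA1B and -0.23 for DNAJB1. With trends over GC content and transcript length removed, the pool 18 difference was 0.54 for HSPA8, 0.83 for HSP90AA1 and 0.90 for HSP90AB1, and 0.24 for HSPD1. The part of whatever set resistant 18 apart on the first principal component was not tested.

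Lists of the partners of these chaperones, and of chaperones outside the members, held no gene that passed the adjusted threshold. Of the 16 HSP90 co-chaperones, 15 had a positive difference, against 51.6% of all genes, with a median of 0.28 (0.30 without resistant 18) and pool medians of 0.17, 0.65 and 0.52 in pools 17, 18 and 28. Higher values in each of the 3 pools were found for 9 of them, against 18.9% of all genes and 0 of the 9 members. At an unadjusted p under 0.05 by limma, 6 of the 16 were higher, against 5.99% of all genes. These were NUDC, CHORDC1, FKBP5, CDC37, AHSA1 and STIP1, the last 4 named after their values were seen.

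NUDC, a co-chaperone with a role in cell division, had 43.6, 59.8 and 39.8 FPKM in resistant pools, against 25.4, 10.4 and 10.1 FPKM in control pools, and the groups did not overlap. Its difference was 1.68 (SE 0.36, limma adjusted p = 0.179). CHORDC1, a stress-inducible HSP90 partner, had 7.01, 9.46 and 6.58 FPKM in resistant pools, against 3.44, 4.46 and 3.31 FPKM in control pools. Every resistant value was above every control value, with a difference of 0.87 (SE 0.19, limma adjusted p = 0.182). NUDC and CHORDC1 were named for the smallest p of their list, so their lack of overlap is no separate support. Groups did not overlap for 21.3% of all genes tested. CDC37, which brings kinases to HSP90, had 106, 89.3 and 88.5 FPKM in resistant pools, against 71.9, 40.0 and 32.9 FPKM in control pools, a limma adjusted p of 0.232.

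Among 17 tested J domain co-chaperones besides DNAJB1, the difference was positive for 13 and positive in each of the 3 pools for 9, against 51.6% and 18.9% of all genes. Their median was 0.28, and 0.12 without resistant 18. Those with an unadjusted p under 0.05 by limma were 4, all higher, against 5.99% of all genes. DNAJC8, a splicing-associated J protein, had 62.2, 100.2 and 64.3 FPKM in resistant pools, against 48.3, 43.8 and 38.9 FPKM in control pools (difference 0.75, SE 0.23, limma adjusted p = 0.252). DNAJA1, a cytosolic partner of HSPA8, had 102, 102 and 117 FPKM in resistant pools, against 88.2, 80.6 and 59.5 FPKM in control pools (difference 0.50, SE 0.20, limma adjusted p = 0.355). In both genes, named for the smallest p of their list, the groups did not overlap, as in 21.3% of all genes tested. The median of the 9 nucleotide exchange factors and other HSP70 cofactors was 0.19, and 0.023 without resistant 18. BAG1, which exchanges nucleotide on HSP70, differed by 0.53 (limma adjusted p = 0.325), and STUB1, a ubiquitin ligase that marks HSP70 clients, by 0.40 (limma adjusted p = 0.359).

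The 17 chaperones of the endoplasmic reticulum, which respond to a separate stress pathway, had a median difference of 0.33, with 13 positive, 7 of them positive in every pool, and 5 higher at an unadjusted p under 0.05 by limma. The shares over all genes were 51.6%, 18.9% and 5.99%, and without resistant 18 the median was 0.28. Pool medians were -0.0038, 0.37 and 0.51 in pools 17, 18 and 28, with 8 of the 17 positive in pool 17. DNAJB11, an HSP70 partner in that compartment, had 35.5, 37.7 and 31.9 FPKM in resistant pools, against 26.5, 19.2 and 19.2 FPKM in control pools (difference 0.68, SE 0.18, limma adjusted p = 0.219). SDF2L1, another of its components, had 21.1, 18.6 and 27.1 FPKM in resistant pools, against 14.0, 14.1 and 10.8 FPKM in control pools (difference 0.73, SE 0.20, limma adjusted p = 0.220). In both genes, again named for the smallest p, every resistant library was above every control library. Groups did not overlap, in either direction, for 21.3% of all genes tested.

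The chaperonin TRiC folds actin and tubulin, which its helper prefoldin hands to it. The difference was positive for 11 of the 14 genes of this list, against 51.6% of all genes, with a median of 0.16 and pool medians of -0.03, 0.45 and 0.09 in pools 17, 18 and 28, and resistant 18 was the highest library for 10, against 35.4% of all genes. Without resistant 18 the median was 0.029. CCT7, a TRiC subunit, had 260, 345 and 264 FPKM in resistant pools, against 267, 248 and 213 FPKM in control pools (limma adjusted p = 0.639), and PFDN2 of prefoldin a difference of 0.57 (limma adjusted p = 0.505). The 17 other mitochondrial chaperones and proteases had a median of 0.17, which was 0.027 without resistant 18 and 0.081 with quantile normalization, and none at an unadjusted p under 0.05 by limma. LONP1, a matrix protease, differed by 0.56 and DNLZ, a cofactor of mitochondrial HSP70, by 0.54. The other HSP70 and HSP110 genes had 5 tested members and a median of 0.08, which was 0.0047 without resistant 18, with HSPA13 at 0.29. Of 10 genes listed by symbol as small heat shock proteins, 2 were tested, HSPB1 at -0.12 and HSPB11 at -0.18.

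UBB, a stress-raised gene for ubiquitin, the tag that sends misfolded clients to the proteasome, had 1558, 2786 and 1717 FPKM in resistant pools, against 1767, 1906 and 1379 FPKM in control pools (difference 0.23, SE 0.30, limma adjusted p = 0.789). Like most members it was highest in resistant 18, and the groups overlapped; without that library the difference was -0.029. RPS27A, which encodes ubiquitin fused to a ribosomal protein, had a difference of -0.73 (limma adjusted p = 0.220). Unlike those of UBB, its groups did not overlap, as in 21.3% of all genes tested. RPS27A had 601, 522 and 625 FPKM in resistant pools, all below the 1011, 1004 and 879 FPKM of control pools.

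**Figure D5:**
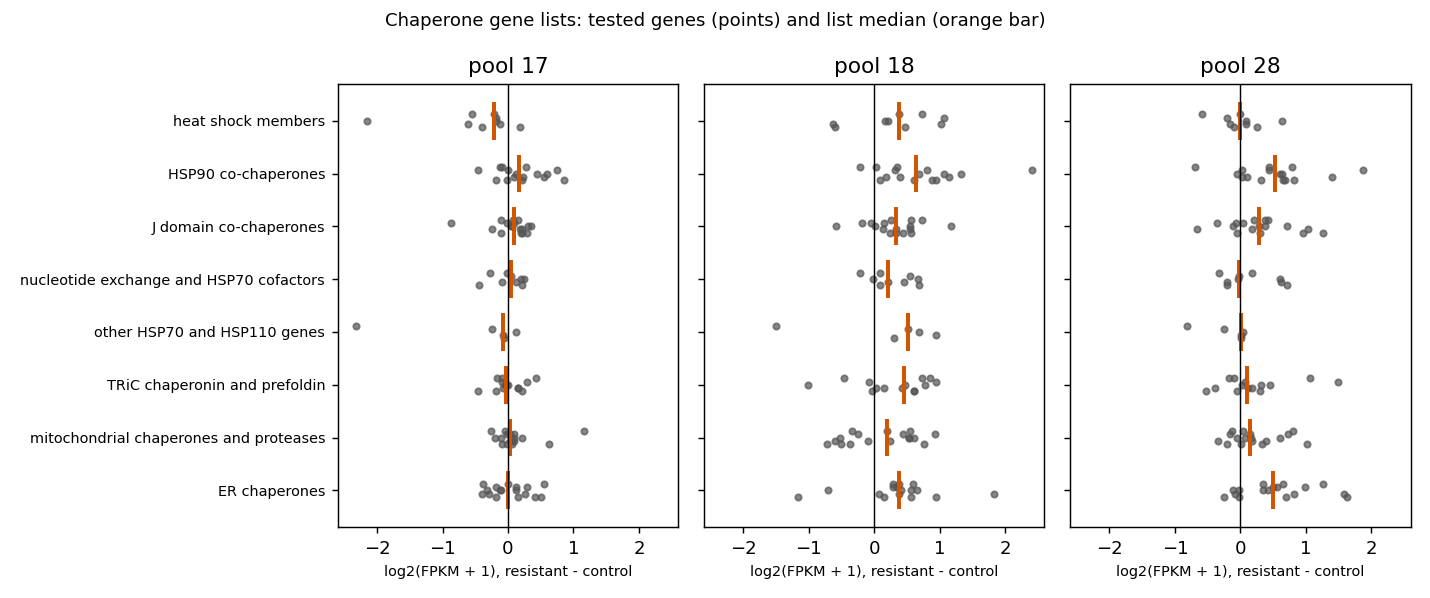
Difference in log2(FPKM + 1), resistant minus control, of each tested gene (grey points) and the median (orange bar) of the heat shock members and 7 lists of chaperones and partners, in 1 panel per pool. In pool 18 the median of the members is 0.37 and that of the HSP90 co-chaperones 0.65; in pool 17 they are -0.21 and 0.17.

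Genes outside the members whose centred log2(FPKM + 1) values over the 6 libraries lay nearest to a member's were found for 4 members, by root mean square distance. Nearest to HSP90AA1 were P2RY10 at 0.0262, RAD51AP1 at 0.0399 and LARS2 at 0.0584, where the spread of HSP90AA1 itself about its mean was 0.470. Nearest to HSPH1, with a spread of 0.139, were SDHB at 0.0228, CXorf40A at 0.0256 and TPR at 0.0263. For HSPD1, with a spread of 0.294, EIF1AY lay at 0.0496, WDR54 at 0.0514 and PLEKHA2 at 0.0544. The distances for HSPA1A, with a spread of 0.838, were far larger, 0.287 for CTAG2, 0.346 for C11orf95 and 0.360 for the small nucleolar RNA gene SNORD78. These distances rest on 6 libraries and describe likeness of pattern only.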

How the data were processed

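An RNeasy Plus Mini kit was used to extract total RNA, whose integrity was read on a Bioanalyzer, per the labels' protocols. FPKM values were deposited by the authors, 1 per gene symbol and library, per the file headers, with decimal commas; the tools were DESeq2, HTSeq 0.6.1, Cufflinks 2.2.1 and TopHat2 2.0.4, on hg19, per the submitters' processing notes. Not given in the sources used here: annotation, RNA selection, strand, read length. Without counts no count model was fitted and absolute depth is unknown. Relative depth came from ratios of low FPKM values, of which 82.1% to 86.3% were ratios of small whole numbers within 0.02 log2.

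Genes at 1 FPKM or more in 3 or more of 6 libraries were tested with limma 3.58.1 in R 4.3.3 (lmFit, eBayes with trend, two-sided) on log2(FPKM + 1), with Benjamini-Hochberg adjustment over all 11307 genes, a threshold of 0.05 and no block for the pool. The script was tested on simulated data. Members and the 16 other gene lists were chosen with earlier results of these data known. All members were named; from each chaperone list, up to 4 passing genes, or else the 2 of smallest p; UBB, HSF2 and BAG3 always; and the 3 genes of nearest pattern for HSPA1A, HSP90AA1, HSPD1 and HSPH1. Some genes that this rule named are not reported here. GC content and length came from GENCODE v29, matched for 9919 genes (87.7%), with a loess span of 0.5. Alternatives were pseudocounts of 0.1 and 5, no filter, quantile and median-of-ratios scaling, array weights, a replicate block with and without GC and length trends, and leaving out libraries or pools. A further alternative summed HSPA1A and HSPA1B into 1 gene.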

Additional observations from a re-analysis of the deposited data

Results flagged for a closer look

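HSPA8, the constitutive HSP70, differed in opposite directions between pools: on the log2(FPKM + 1) scale, resistant minus control, it was 0.73 in pool 18, against -0.54 in pool 17 and -0.59 in pool 28. Each pool has 1 library per group, so the difference between pools was not tested.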

How the results depend on the processing

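No heat shock member passed the threshold under any alternative. The count of genes passing was 4 as reported, 0 by the replicate block with GC and length trends removed, 301 with array weights, and 3 to 58 when a library or pool was left out (11 without pool 17, 58 without pool 18, 8 without pool 28); the cause was not tested. Members with 1 sign in all pools numbered 0, 1 with the replicate block and GC and length trends removed, and 1 to 6 with a library or pool left out, where fewer pools need to match. The design text counts 3 pairs of pools without saying which libraries form a pair. Same-numbered libraries correlated in their deviations at 0.148, 0.0892 and -0.0243, and the reported fit used no pairing; the replicate block alone gave 3 genes, and HSPA1B had a limma adjusted p of 0.621 under it.

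Array weights turned the sign for HSF1 (0.11), HSP90AA1 (-0.14), HSP90AB1 (-0.14), HSPH1 (-0.036), HSF2 (-0.17), HSF4 (0.17) and UBB (-0.037), and brought NUDC to a limma adjusted p of 0.0411. Leaving out a library or pool turned the sign at least once in these ranges: HSF1 -0.21 to 0.21, HSPA1B -1.13 to 0.33, HSPA8 -0.72 to 0.26, HSP90AA1 -0.20 to 0.52, HSP90AB1 -0.22 to 0.53, HSPD1 -0.26 to 0.19, HSPE1 -0.010 to 0.42, HSPH1 -0.11 to 0.18, HSF2 -0.20 to 0.34, HSF4 -0.31 to 0.14, HSPA13 -0.038 to 0.48, HSPB1 -0.24 to 0.038, HSPB11 -0.37 to 0.012 and UBB -0.029 to 0.43. The member median ran from -0.22 without resistant 18 to 0.18 without pool 17. DNAJB1, HSPA6, NUDC and CHORDC1 kept their sign under every alternative. Without counts, the counting error of low genes such as HSPA1A is unknown.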
